A study of Mus musculus with 9 samples.

Results

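Of the 9 small-RNA libraries of a mouse embryo series, 8 carry a genotype label, and these were split by whether miR-92 had been deleted, which gave 3 miR-92-deleted and 5 miR-92-intact libraries. The members were chosen by genotype alone, not by any measured value. The tissue was the embryo at embryonic day 9.5, labelled female, after the heart and tail bud had been dissected off. The miR-92-deleted group held Full-KO, which lacks the whole miR-17~92 cluster, Delta-92, which lacks miR-92 alone, and 19-only, which lacks miR-17, miR-18 and miR-92. The miR-92-intact group held Wild-type, Delta-18, Delta-17, Delta-19 and Delta-17,18, each named for what it lacks. Every genotype was 1 library, so the spread within a group is one between single libraries of different genotypes, and p-values measure only that. Genotype, embryo and library preparation cannot be told apart in this spread. The sources used here do not say whether a library came from 1 embryo or a pool. The groups were not balanced for the other deletions. miR-17 and miR-18 were each missing in 2 of the 3 miR-92-deleted and 2 of the 5 miR-92-intact libraries, and miR-19 in 1 of 3 and 1 of 5. The libraries without miR-17 also had little miR-20a-5p, another member of the cluster, with the levels given below. The ninth library, of undetermined reads, entered no comparison.

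A miRNA is cut from a hairpin that has a 5p and a 3p arm, and the bases at positions 2 to 8 of the mature strand, its seed, lead it to matching sites in messenger RNAs. miR-17~92 is a polycistron whose hairpins share 1 host transcript, Mir17hg, and it is known for promoting growth and survival in the embryo. Its last hairpin, Mir92-1, gives miR-92a-3p, the usual guide strand, and miR-92a-1-5p, the partner strand. Other miRNAs carry the same seed as miR-92a-3p and can in principle bind the same sites.

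The sequences below, 5′ to 3′ with the seed in capitals, show which strands the deletion removes and which retain its seed. They are RefSeq's, for GRCm38.p6.
miR-92a-1-5p: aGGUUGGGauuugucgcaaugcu
miR-92a-3p: uAUUGCACuugucccggccug
miR-25-3p: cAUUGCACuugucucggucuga
miR-92b-3p: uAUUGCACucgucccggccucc
miR-363-3p: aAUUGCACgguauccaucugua
miR-367-3p: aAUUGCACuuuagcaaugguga
miR-32-5p: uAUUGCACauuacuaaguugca
miR-92a-1-5p lies at chr14:115044437-115044459 on the plus strand, in an exon of Mir17hg, and RefSeq lists it for that hairpin alone. miR-92a-3p is encoded there and also by Mir92-2 at chrX:52741854-52741874 on the minus strand, outside annotated genes, which was not deleted.

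Outside the cluster, 11 miRNAs of the 538 rows tested (2.04%) separated the groups with no overlap, and limma called 0 of the 538. The sequences of the 11 are shown because the comparison turns on them. The 4 that were higher in every miR-92-deleted library come first.
miR-153-5p: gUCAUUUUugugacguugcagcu
miR-501-5p: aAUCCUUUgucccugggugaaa
miR-1193-5p: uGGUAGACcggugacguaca
miR-28-5p: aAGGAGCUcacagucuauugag
The 7 that were lower in every miR-92-deleted library included miR-124-5p, which is named only.
miR-142-3p: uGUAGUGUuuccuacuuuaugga
miR-451: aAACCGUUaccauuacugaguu
miR-369-3p: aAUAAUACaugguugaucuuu
miR-329-5p: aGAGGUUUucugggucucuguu
miR-3102-3p: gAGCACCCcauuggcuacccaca
let-7g-5p: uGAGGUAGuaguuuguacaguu
None of the seeds shown here for these miRNAs is the AUUGCAC of miR-92a-3p, and no seed occurs in more than 1 of them.

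Levels are given as nRPM, the authors' normalised reads multiplied by 1 constant that puts them on the scale of reads per 1e6. The 8 libraries held between 6564471 and 18481380 reads, and a single read was worth between 0.0624 and 0.157 nRPM. Where 3 or 5 values follow each other, the order is Full-KO, Delta-92 and 19-only for miR-92-deleted, and Wild-type, Delta-18, Delta-17, Delta-19 and Delta-17,18 for miR-92-intact. Differences are means of log2(nRPM + 1), deleted minus intact, with the standard error (SE) of the limma fit. limma was run across the 551 miRNA rows with an average of at least 10 nRPM, and a row was called at a Benjamini-Hochberg adjusted p under 0.05. The pseudocount of 1 understates differences of low miRNAs. Over 319 rows outside the cluster averaging 100 nRPM or more, pairs of libraries correlated at between 0.909 and 0.961 on the log2 scale, across miRNAs, which are not independent. Marker miRNAs of the heart, which had been removed, were still read at low levels. miR-208a-3p, miR-208b-3p and miR-499-5p summed to between 83.7 and 225.3 nRPM in the miR-92-deleted and between 41.2 and 256 nRPM in the miR-92-intact libraries.

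The partner strand of the deleted hairpin was almost absent from the 3 miR-92-deleted libraries, as their labels say. miR-92a-1-5p stood at 1.26, 0 and 1.25 nRPM there, from 12, 0 and 18 reads. It stood at 1442, 1302, 1679, 2097 and 501.8 nRPM in the 5 miR-92-intact libraries, from between 4382 and 22665 reads. The 0 reads of Delta-92 allow a level of up to 0.429 nRPM (3 reads), which is 0.0298% of Wild-type. Among libraries that kept miR-92, Delta-17,18 had the lowest level, at 34.8% of Wild-type. The log2 difference was -9.53 ± 0.48 (SE, n = 3 and 5), with a limma adjusted p of 2.79e-06. The groups were formed by the deletion of this hairpin, so the call checks the labels and tests nothing further.

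miR-92a-3p, the guide strand, was listed in 2 rows, and the sources used here do not tie either row to a locus. The higher row stood at 682.5, 871.5 and 545.8 nRPM where miR-92 was deleted and at 199542, 68470, 116098, 139079 and 60314 nRPM where it was intact. It was assigned to the cluster because of this pattern, so its values are a description. It took between 5.68% and 18.0% of all nRPM in the intact libraries and between 0.0638% and 0.0928% in the deleted ones. The lower row stood at 9799.7, 14308 and 8491 nRPM in the deleted and at 22952, 13797, 19242, 17234 and 10970.4 nRPM in the intact libraries. The groups of the lower row overlapped, with Delta-92 above both Delta-18 and Delta-17,18. Its log2 difference was -0.62 (95% interval -1.25 to 0.01) and missed the test, with a limma adjusted p of 0.861. How the authors' counting divided identical sequences between these rows was not tested.

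No miRNA that retains the miR-92 seed was called higher or lower where miR-92 was missing, and limma called 0 of all 538 rows outside the cluster. miR-25-3p, the most abundant of them and part of the miR-106b cluster in an exon of the replication gene Mcm7, stood at 24804, 30153 and 36733 nRPM in the deleted libraries. In the intact libraries it stood at 42560, 42140, 50518, 34215 and 31687 nRPM. These ranges overlap through 19-only, and the log2 difference was -0.39 (95% interval -0.87 to 0.08, limma adjusted p = 0.861). miR-92b-3p, from an autosomal gene of its own, stood at 3803, 4848 and 4468 against 5966, 4794, 5049, 4761 and 4552 nRPM. Its log2 difference was -0.20 (95% interval -0.63 to 0.22). miR-363-3p, encoded beside Mir92-2 on the X chromosome, stood at 5196, 5187 and 4438 against 4709, 4380.2, 5732, 4167 and 4039 nRPM. Its log2 difference was 0.11 (95% interval -0.33 to 0.55), so that a rise of log2 0.55 lies at the edge of what these libraries allow.

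The remaining members with this seed varied more between libraries of 1 group than between the groups. miR-367-3p, which is known from pluripotent cells, stood at 718, 1891 and 500.0 nRPM in the deleted libraries and at 285, 1582, 489, 162 and 2211 nRPM in the intact ones. Its log2 difference was 0.54 with a 95% interval from -1.38 to 2.46, the widest of the family. miR-32-5p, from an intron of Tmem245, ranged from 164 to 372 nRPM in the deleted and from 152 to 365 nRPM in the intact libraries, with a log2 difference of -0.16 ± 0.37 (SE).

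Summed over all rows with the seed, the family stood at 45173, 57423 and 55547 nRPM where miR-92 was deleted and at 276167, 135528, 197328, 199867 and 114086 nRPM where it was intact. The means were 52715 ± 6598 (SD, n = 3) and 184595 ± 63561 nRPM (SD, n = 5). The deleted libraries thus held between 16.4% and 20.8% of the Wild-type sum, while the intact mutants held between 41.3% and 72.4%. The higher row of miR-92a-3p makes up most of the gap, and that row was chosen by its values. Without it the sums were 44491, 56552 and 55002 nRPM in the deleted and 76625, 67058, 81229.9, 60788 and 53772 nRPM in the intact libraries. These ranges overlap through Delta-17,18 only.

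**Figure D1:**
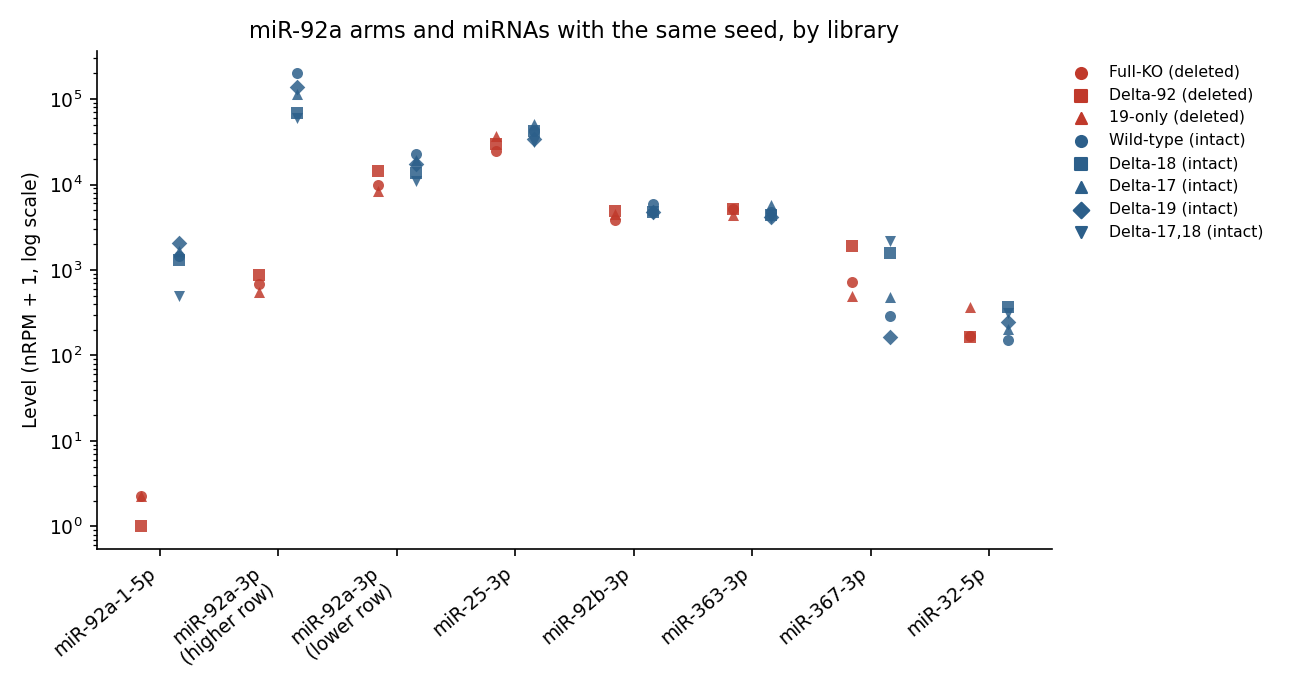
Levels of the 2 arms of miR-92a and of the miRNAs that share the seed of miR-92a-3p, in nRPM + 1 on a log axis, with 1 point per library. The 3 miR-92-deleted libraries (red) lie at or below 1.26 nRPM for miR-92a-1-5p, where the 5 miR-92-intact libraries (blue) lie at or above 501.8 nRPM, and the groups overlap for the other 6 rows to the right of the higher miR-92a-3p row.

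The comparison outside the cluster asked whether any other miRNA followed the loss of miR-92 over all 8 libraries. limma called 0 of 538 rows (0%), with a lowest adjusted p of 0.861. At an unadjusted p under 0.05 it counted 18 rows, 8 higher and 10 lower in the miR-92-deleted libraries. That count was 54 without Delta-17,18, 9 without Delta-17 and 11 without Full-KO or without Delta-18, and it was 42 with plain read totals and 7 with terms for miR-17, miR-18 and miR-19. On whole reads recovered from the table, edgeR's quasi-likelihood test called 0, with 20 rows at an unadjusted p under 0.05. DESeq2's Wald test called 1, miR-450a-5p, and counted 28 at an unadjusted p under 0.05. The median log2 difference over the 538 rows was 0.05, with quartiles of -0.22 and 0.27, and 292 rows were above 0 and 246 below. Within log2 1, a 2-fold difference, lay 98.1% of the rows, and 10 lay beyond it, 6 higher and 4 lower. The median 95% interval reached 0.74 on the log2 scale to either side. For 255 of the 538 rows the whole interval lay within log2 1, so for the others a 2-fold difference is not excluded by these libraries.

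Read by overlap alone, 4 of the 538 rows (0.743%) had every miR-92-deleted library above every miR-92-intact library, and 7 (1.3%) had every one below. miR-142-3p was the only 1 of the 11 to differ by more than 2-fold in the mean. The split depended on how libraries were scaled. Scaled to plain read totals, 25 rows (4.65%) lay above and 1 row (0.186%) below, and the median log2 difference of all rows moved from 0.05 to 0.24. All 4 of the higher rows kept their separation under plain totals, whereas of the 7 lower rows only miR-142-3p did. Over the 5 scalings tried, miR-142-3p and miR-1193-5p were the rows of the 11 without overlap in every one.

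**Figure D2:**
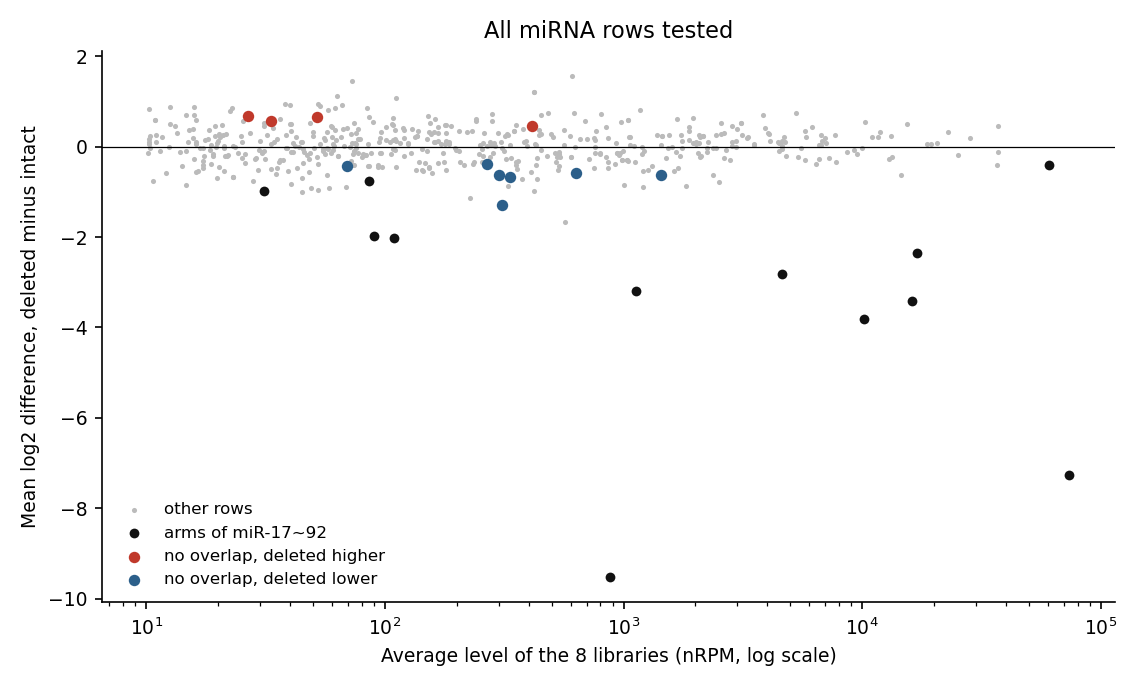
Mean log2 difference (deleted minus intact) against the average level of the 8 libraries in nRPM (log axis), with 1 point for each of the 551 rows tested. The 12 arms of the cluster (black) all lie below 0, and the 4 higher (red) and 7 lower (blue) rows without overlap lie among the other rows, which spread between -1.66 and 1.57.

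The summed levels show what the scalings differ on. The authors' scaling left totals between 855073 and 947879 nRPM in the miR-92-deleted and between 958923 and 1153110 nRPM in the miR-92-intact libraries, without overlap. Outside the cluster the totals overlapped, at between 762601 and 934490 nRPM and between 765686 and 823983 nRPM, with Full-KO the highest of all 8. The arms of the cluster took 0.379%, 17.3% and 8.31% of the total in the deleted libraries and between 15.6% and 32.0% in the intact ones.

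**Figure D3:**
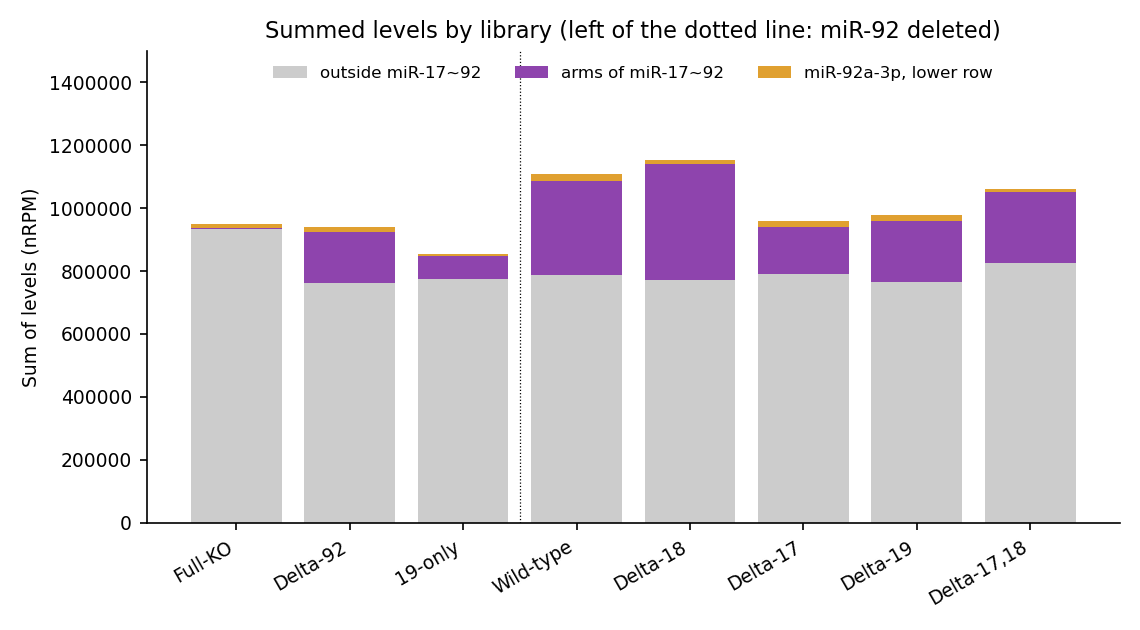
Summed levels per library in nRPM, divided into miRNAs outside miR-17~92 (grey), the arms of the cluster (purple) and the lower row of miR-92a-3p (orange). The full bars of the 3 miR-92-deleted libraries are all shorter than those of the 5 miR-92-intact libraries, while the grey parts overlap.

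The largest separated difference was that of miR-142-3p, a miRNA of blood and immune cells, which was lower in all 3 miR-92-deleted libraries. It lies at chr11:87756903-87756925 on the plus strand (GRCm38.p6), within the host RNA Mir142hg. It stood at 114, 207 and 134 nRPM where miR-92 was deleted and at 328, 849, 313, 283 and 253 nRPM where it was intact. Delta-18 stood far above the other intact libraries, and the nearest pair, Delta-17,18 over Delta-92, differed by 1.22-fold (95% counting interval 1.14 to 1.31). The log2 difference was -1.30 ± 0.41 (SE, 95% interval -2.21 to -0.38), with a limma p of 0.0107 that adjusts to 0.861. Without Delta-18 it was -0.99. Over all alternatives tried the adjusted p of miR-142-3p ranged from 0.151 to 0.993 across limma, edgeR and DESeq2.

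By their labels, 2 pairs of libraries differ in miR-92 alone, Delta-92 from Wild-type and 19-only from Delta-17,18. Arms of the cluster that both libraries of a pair kept differed in level too. miR-19a-3p stood at 2.09 of the intact partner in the first pair and at 0.188 in the second. miR-142-3p stood at 0.630 (95% counting interval 0.589 to 0.674) of the intact partner in the first pair and at 0.531 (0.499 to 0.564) in the second. Such a ratio compares 2 libraries, with no replicate check, and the interval covers counting error only. miR-142-5p, from the other arm of the hairpin, stood at 322, 376 and 235 nRPM against 292, 648, 371, 516 and 500.7 nRPM. Its groups overlapped, with a log2 difference of -0.55 ± 0.30 (SE), and its ratio was 1.28 in the first pair and 0.470 in the second. RefSeq lists a second hairpin, Mir142b, at the same place, and the sources used here do not say whether the counting used the strand, so reads of overlapping hairpins cannot be told apart.

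miR-451, a miRNA of red blood cells, was also lower in each miR-92-deleted library. It stood at 234, 226 and 249 nRPM where miR-92 was deleted and at 261, 534, 458, 419 and 289 nRPM where it was intact. The nearest libraries, Wild-type and 19-only, differed by 1.05-fold with a counting interval that spans 1. The log2 difference was -0.68 ± 0.28 (SE, limma adjusted p = 0.861), and the matched pairs gave ratios of 0.863 and 0.862. Its hairpin, at chr11:78073170-78073241, is listed together with Mir451b, which occupies the same bases.

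The list of blood miRNAs had 8 members measured and 6 tested. All 6 had a log2 difference below 0 and 2 of them did not overlap, against 246 of 538 below 0 and 1.3% without overlap on that side over all rows. Their median was -0.50, against 0.05 over all rows, and limma called 0 of them, as of all 538 rows. The 6 rows are not independent, since both arms of miR-142 and of miR-144 are among them. The 2 without overlap are miR-142-3p and miR-451, already picked above for lying lower, so these counts are a description and no test. miR-144-3p and miR-144-5p, processed from the same red-cell transcript as miR-451, each had a difference of -0.44, and their groups overlapped. miR-486-5p, also of red cells and the most abundant of the list, stood at 1146, 838 and 608 nRPM against 1187, 943, 1145, 1299.5 and 705 nRPM. The summed level was 2055, 1804 and 1473 nRPM in the deleted and 2257, 3466, 2622, 2818 and 1975 nRPM in the intact libraries, which overlap through Full-KO and Delta-17,18. miR-223-3p and miR-150-5p, of white blood cells, were below 10 nRPM in all 8 libraries, and their groups overlapped. miR-223-3p stood at 0, 2.15 and 5.06 nRPM in the deleted and at 3.13, 4.31, 9.71, 5.57 and 3.32 nRPM in the intact libraries. For miR-150-5p the values were 0, 5.15 and 7.41 against 1.41, 2.37, 4.07, 5.26 and 3.21 nRPM, with 19-only the highest of all 8. In whole-tissue RNA, fewer blood cells and less of these miRNAs per cell cannot be told apart, and the part that blood content has in the difference of miR-142-3p was not tested.

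**Figure D4:**
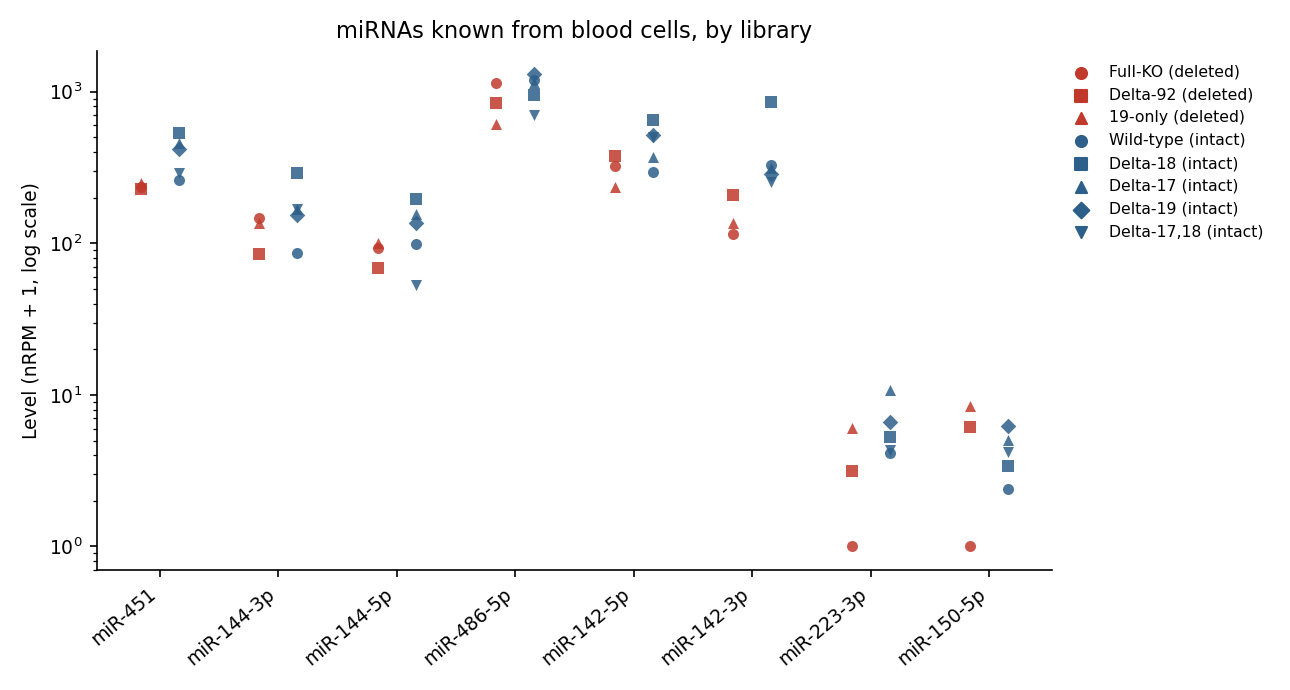
Levels of the 8 measured miRNAs of the blood list in nRPM + 1 on a log axis, with 1 point per library. The miR-92-deleted libraries (red) lie below all miR-92-intact libraries (blue) for miR-451 and miR-142-3p and overlap with them for the other 6.

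3 of the 11 separated miRNAs come from the imprinted Dlk1-Dio3 region of chromosome 12, a long array of miRNA hairpins read from the maternal allele. They are 3 of the 96 tested rows that RefSeq places there (3.13%), against 11 of all 538 rows (2.04%), so the region's share is near that of all rows. Of the 3, 2 were lower and 1 higher. miR-369-3p (chr12:109743466-109743486, in an exon of Mirg) was the most abundant of the 11. It stood at 1116, 1092 and 989 nRPM where miR-92 was deleted and at 1258, 1753, 2044, 1759.7 and 1495 nRPM where it was intact. Its log2 difference was -0.62 ± 0.22 (SE, limma adjusted p = 0.861), and its nearest pair, Wild-type over Full-KO, differed by 1.13-fold with a counting interval of 1.10 to 1.16. The matched pairs gave 0.868 and 0.662.

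miR-329-5p (chr12:109713503-109713524) stood at 545, 386 and 515 nRPM against 558, 603, 868, 908 and 696 nRPM, a log2 difference of -0.58 ± 0.25 (SE). The third, miR-1193-5p (chr12:109715716-109715735), lies a short way downstream on the same strand and was higher where miR-92 was deleted. It stood at 46.7, 41.5 and 36.9 nRPM against 32.3, 22.9, 27.9, 35.6 and 22.4 nRPM, a log2 difference of 0.56 ± 0.26 (SE). miR-379-5p, which shares its seed, overlapped between the groups, with a difference of 0.55 ± 0.36 (SE). Of the 23 other tested rows within 10000 bases of the hairpin of miR-369-3p, 11 were above and 12 below 0. None of the 23 separated the groups, where 2.04% of all rows did, so few would be looked for among so few rows. Around miR-329-5p 20 rows were above and 10 below 0, and around miR-1193-5p 22 were above and 13 below. Around both, 1 row separated the groups, miR-1193-5p for the first and miR-329-5p for the second. The 48 tested members of the region's list had a median log2 difference of 0.07, close to the 0.05 of all rows, and of them miR-369-3p alone separated the groups.

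Of the other 3 higher miRNAs, miR-153-5p is the minor strand of a neural hairpin in an intron of Ptprn2 (chr12:117250821-117250843). It stood at 31.5, 37.4 and 35.5 nRPM where miR-92 was deleted and at 16.8, 29.6, 18.5, 20.9 and 23.1 nRPM where it was intact. Its log2 difference was 0.67 ± 0.27 (SE), the largest of the higher rows, and the matched pairs gave 2.23 (1.77 to 2.82) and 1.53 (1.30 to 1.81). miR-501-5p (chrX:7241307-7241328, within Clcn5) stood at 56.6, 66.8 and 79.7 nRPM against 50.1, 30.7, 43.0, 47.3 and 41.3 nRPM. Its difference was 0.66 ± 0.25 (SE), and the matched pairs gave 1.33 and 1.93. Of the 6 other tested rows within 10000 bases of miR-501-5p, 2 were above and 4 below 0. Among these 6 rows 0 separated the groups, where 2.04% of all rows did. miR-28-5p (chr16:24827868-24827889, within Lpp) stood at 535, 477 and 468 nRPM against 459, 319, 434, 339.5 and 284 nRPM, a difference of 0.45 ± 0.23 (SE). Its matched pairs gave 1.04, with a counting interval of 0.989 to 1.09 that includes no difference, and 1.65 (1.58 to 1.73).

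The remaining lower miRNAs were separated by narrow gaps. miR-124-5p, the minor strand of the main miRNA of neurons, stood at 232.5, 210.7 and 211 nRPM against 237, 451, 429, 394 and 248 nRPM, a log2 difference of -0.64 ± 0.28 (SE). Wild-type exceeded Full-KO by only 1.02-fold for it. miR-3102-3p (chr7:100882307-100882329, in an exon of Arhgef17) stood at 59.6, 49.7 and 60.1 nRPM against 75.8, 60.1, 77.5, 96.7 and 75.3 nRPM. Its difference was -0.43 ± 0.23 (SE), and Delta-18 exceeded 19-only by 1.001-fold. let-7g-5p (chr9:106178846-106178867, within Wdr82), a member of the let-7 family that rises as cells mature, stood at 179, 257 and 245 nRPM against 264, 349, 290.3, 288 and 275 nRPM. Its difference was -0.38 ± 0.22 (SE). Of the 8 tested let-7 guides, 6 were below 0, with a median of -0.28, against 246 of 538 below 0 and a median of 0.05 over all rows. let-7g-5p alone of them separated the groups, where 1.3% of all rows did on that side. let-7 guides differ by few bases, so the counting may divide reads between them.

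**Figure D5:**
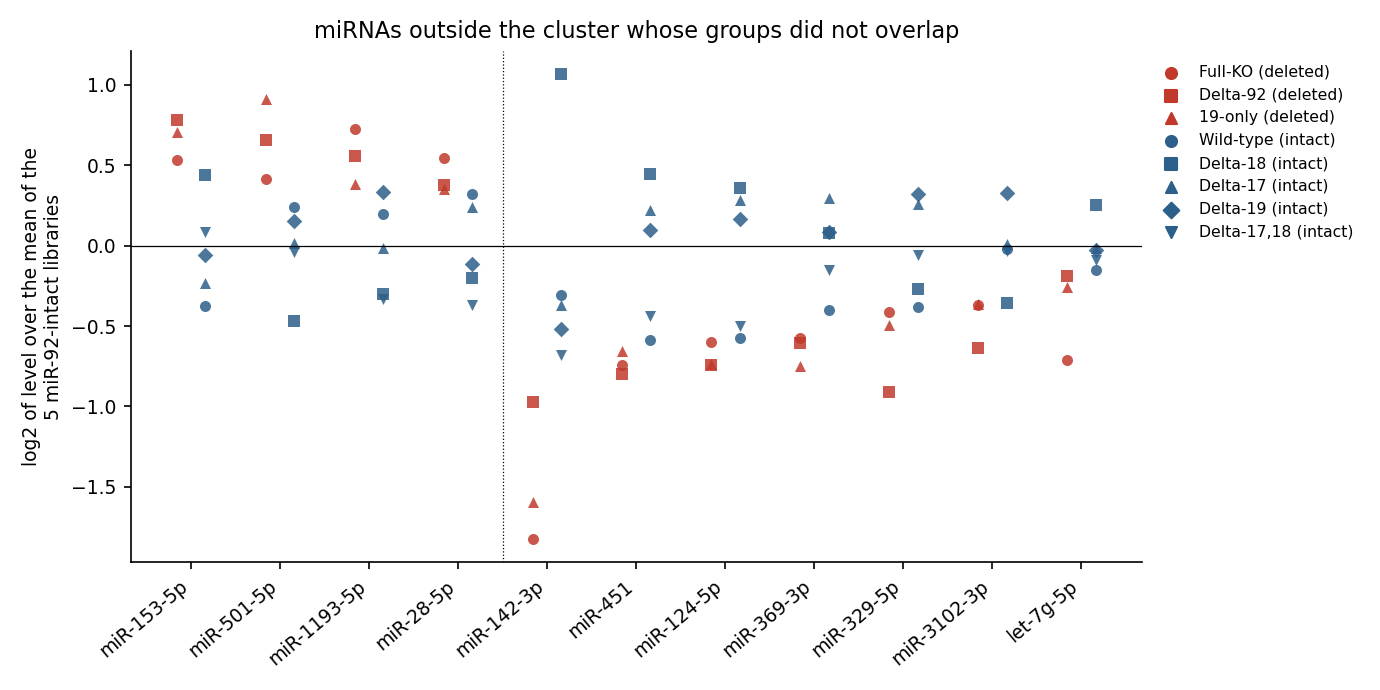
Level of each of the 11 separated miRNAs as log2 of its ratio to the mean of the 5 miR-92-intact libraries, with 1 point per library. The 3 miR-92-deleted libraries (red) lie above all miR-92-intact libraries (blue) for the 4 miRNAs left of the dotted line and below them for the 7 to the right, with the widest gap for miR-142-3p.

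For 9 of the 11 the gap between the nearest libraries of the 2 groups was within counting error, and for miR-142-3p and miR-369-3p it was not. The other arm of the same hairpin was measured for 10 of the 11, all but miR-451, and averaged 10 nRPM or more for 8. Of these 8, 7 had a difference of the same sign and 0 separated the groups, where 2.04% of all rows did. miR-1193-3p had the opposite sign, at -0.33 ± 0.23 (SE). miR-501-3p, the abundant arm of its hairpin, had a difference of 0.35 ± 0.29 (SE), and miR-124-3p, the neuronal guide, -0.16 ± 0.23 (SE).

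Because miR-17 was missing more often from the miR-92-deleted group, the overlap was also read within each miR-17 status, a count chosen after the data had been seen. The libraries without miR-17 were low in miR-20a-5p too. It stood at 21.0 nRPM in Full-KO, 8.66 in 19-only, 21.2 in Delta-17 and 187 in Delta-17,18, against 31072 nRPM in Wild-type. Delta-92 was set against the 3 libraries with miR-17 and miR-92, and Full-KO and 19-only against the 2 that lack miR-17 alone or with miR-18. This weaker condition, which the 11 rows meet by construction, held for 19 higher rows (3.53% of the 538) and 17 lower rows (3.16%), of which 15 and 10 were not among the 11. A term for miR-17 in the limma fit left 0 calls, and so did terms for miR-17, miR-18 and miR-19.

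The lowest p-values also took in 4 miRNAs whose groups overlapped. miR-450a-5p, whose hairpin belongs to the miR-322 cluster on the X chromosome, stood at 247, 141 and 232 nRPM where miR-92 was deleted and at 1724, 440, 877, 668 and 233 nRPM where it was intact. Delta-17,18 stood within the deleted range and Wild-type was the highest. The log2 difference was -1.66 ± 0.57 (SE, limma adjusted p = 0.861), while DESeq2 gave -1.95 with an adjusted p of 0.0424. The DESeq2 result is a call by 1 of 3 tools. The other alternatives of this miRNA gave adjusted p between 0.161 and 0.993 with limma and edgeR. The 9 tested rows of its cluster had a median of -0.10, with 4 above and 5 below 0.

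miR-23a-3p, which is known from vessels and muscle, stood at 190.0, 321 and 271 nRPM against 502.6, 597, 687.5, 518 and 298 nRPM. It was lower in the deleted libraries except that Delta-92 exceeded Delta-17,18, and its log2 difference was -0.98 ± 0.31 (SE, limma adjusted p = 0.861). miR-337-5p stood at 645, 759 and 466 nRPM against 219, 183, 215.5, 224 and 672 nRPM, a log2 difference of 1.21 ± 0.42 (SE). Without Delta-17,18, the 1 intact library at the deleted level, limma called it, at 1.54 ± 0.23 (SE, adjusted p = 0.0213). miR-3544-3p had nearly the same values and the same call, and its hairpin overlaps that of miR-337 in the Dlk1-Dio3 region, so they cannot be told apart.

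Lists of miRNAs known from other tissues gave 0 limma calls, as did the 538 rows as a whole. No member of these lists separated the groups, where 2.04% of all rows did, so these counts do not set the lists apart. Muscle miRNAs had a median log2 difference of 0.37 (3 of 4 above 0), led by miR-1a-3p at 2862, 4622 and 3662 nRPM against 2485, 2431, 1531, 2211 and 5005 nRPM. Those of the heart had 0.27 (3 of 3 above 0), neural ones -0.16 (5 of 7 below 0), epithelial ones 0.06 and sensory ones -0.33. Endothelial miRNAs had a median of -0.02, mesenchymal ones 0.10 and pluripotency miRNAs 0.18. The miRNAs of the Hox clusters had a median of -0.54 with 5 of 5 rows below 0, but these include 2 rows of miR-196a-5p. Delta-92 held the lowest level of all 8 libraries for both of those rows and for miR-196b-5p, at 121, 109 and 183 nRPM. The miR-106a cluster had a median of 0.18 (9 of 10 above 0) and the miR-106b cluster -0.33 (3 of 5 below 0). Of the 12 arms of miR-17~92 itself, limma called miR-92a-1-5p and the higher row of miR-92a-3p lower. The call of miR-92a-1-5p follows from the grouping, and the miR-92a-3p row had been assigned to the cluster for this pattern, so neither call is a test. The others were deleted in some libraries of both groups, and the median of all 12 was -2.59. The miR-92 seed family had a median of -0.20, with 5 of 7 rows below 0.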

How the data were processed

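Small RNA was measured in 8 genotype libraries and 1 library of undetermined reads, with 1 library per genotype. RNA was extracted with Trizol per the labels' protocols, and the tools in the submitters' processing notes are featureCounts, Subread 1.4.2, STAR 2.2.0 and SAMtools 0.1.19, with the build mm9. The deposited table gives signal values, which the authors made by dividing reads by a size factor per library, as shown by the values, of which 100% were whole reads within 0.001. Its 1046 rows were reduced to 985. Among rows of 1 accession whose totals differed by at most 10%, only the row with the higher total was kept, without summing. For 7 accessions separate rows were kept. Values times 0.116 are nRPM. 0 deposited columns belonged to no sample.

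Groups came from genotype labels. limma 3.58.1 (trend, 6 residual degrees of freedom, pseudocount 1 nRPM) tested the 551 rows with an average of at least 10 nRPM, of which 538 lay outside the cluster. "Outside" leaves out the 12 arms and the lower miR-92a-3p row. The smallest p an exact two-sided permutation of 3 against 5 libraries allows is 0.0357. Alternatives were edgeR 4.0.16 and DESeq2 1.42.0 on recovered reads, other pseudocounts, filters, scalings and covariates, and each library left out. All 3 tools were tested on simulated data. Counting intervals were exact, at 95%, and cover counting error only. Intervals of single levels of an unread miRNA used 3 reads.

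The groups, the 17 lists and the tests were chosen with earlier results of these data known. Named were all arms of the cluster, the miR-92 seed family, up to 12 non-overlapping rows per direction, up to 5 calls and the 3 lowest limma p-values per direction, partner arms, and, per list, the 2 members with the highest level. Of these, the text gives the ones a result turns on. miRNA sequences and positions are RefSeq's (GRCm38.p6), not those of mm9, and matched 811 of 985 rows by name. Host genes are from GENCODE. Counts in other groupings of the 8 libraries were not made.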

Additional observations from a re-analysis of the deposited data

Results flagged for a closer look

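Among the 5 miR-92-intact libraries, 3 of 23 miRNAs examined had a single library far from the other 4, by a limit that about 1 in 20 groups passes by chance. miR-142-3p stood at 848.6 nRPM in Delta-18, where the next highest library had 328 nRPM, and without Delta-18 its log2 difference was -0.99. miR-337-5p and miR-3544-3p, which cannot be told apart, both stood at 671.6 nRPM in Delta-17,18, with the other 4 between 183 and 224 nRPM. In the library of undetermined reads, which has no genotype, 51 of the 538 rows outside the cluster were above all 8 genotype libraries. Of the 23 miRNAs examined, 2 were above them by more than counting error. The lower row of miR-92a-3p stood at 31033 nRPM there, against at most 22952 nRPM in the others. miR-369-3p stood at 2158 nRPM, against at most 2044 nRPM.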

How the results depend on the processing

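Of 332 values of 16 single miRNAs under the alternatives, 329 kept their direction and their side of the threshold and 0 changed sign. The 3 that became calls were miR-450a-5p with DESeq2 and miR-337-5p and miR-3544-3p without Delta-17,18. Limma calls outside the cluster stayed at 0 lower with any 1 library left out, and ranged from 0 to 2 higher, the 2 being those without Delta-17,18. DESeq2 called 1 lower. The cause of each change below was not tested. Counts of separated rows depended on the libraries, since fewer libraries overlap less. With 1 library left out they ranged from 6 to 29 higher and from 9 to 29 lower. Without 19-only they were 28 and 29, without Delta-17,18 29 and 22, without Delta-92 20 and 24 and without Full-KO 19 and 15. They were 11 and 9 without Wild-type, 11 and 11 without Delta-19, 6 and 10 without Delta-18 and 6 and 9 without Delta-17. With no filter on low values 14 were lower, and at an average of 100 nRPM or more 1 was higher. Plain read totals gave 25 higher and 1 lower, and totals outside the cluster 2 higher. Within each miR-17 status, a condition added after the data had been seen, 19 were higher and 17 lower. The labels give no replicate numbers that pair libraries, and the fit with a term for each other deleted family left 0 calls. Depth limits the rows near 10 nRPM, where 1 read is worth up to 0.157 nRPM. Plain totals moved the median of all rows from 0.05 to 0.24.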
